A study of Mus musculus with 12 samples.

Results

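The genes described here are 10 regulators of the switch between epithelial and mesenchymal cell states, Zeb1, Zeb2, Snai1, Snai2, Twist1, Ovol1, Ovol2, Grhl2, Esrp1 and Esrp2. They were chosen by name as regulators of that switch, and all 10 were found among the 20432 genes of the normalised read count table. The libraries came from 6 cell lines of mouse pancreatic ductal adenocarcinoma, the common cancer of the pancreas that arises from duct-like cells. The lines carry the numbers 52205, 52419, 52424, 53105, 53369 and 53371. Each line was sequenced once as the parental culture, labelled wild type, and once after infection with a pBabe retrovirus carrying Cre recombinase and puromycin selection at 2, 4 and 7 µg/ml, labelled JAK1 knockout and called Cre here. Both cultures of every line were kept in DMEM with 10% fetal bovine serum. With 1 library per line and condition, the spread between libraries of a group is the spread between lines. Infection, selection and time in culture differ between the groups together with Cre and cannot be told apart from it, since no empty-vector culture is analysed here.

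Epithelial cells are held together by junctions built on E-cadherin (Cdh1) and can lose them to become motile, spindle-shaped mesenchymal cells. ZEB, SNAIL and TWIST proteins are transcription factors that repress epithelial genes and promote the mesenchymal state. OVOL and GRHL proteins are transcription factors that keep the epithelial program on, and ZEB1 is known to be in mutual repression with OVOL2 and GRHL2. ESRP proteins bind RNA and direct the splicing of epithelial isoforms, and their genes are repressed by ZEB proteins in many carcinomas. In pancreatic cancer, cell lines range from epithelial to mesenchymal, and their position on this range is read from these genes.

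Each library held 11.5 to 18.0 M reads in genes (M, 1e+06), and 1 read was worth 0.0569 to 0.0896 normalised counts per M reads (CPM). Jak1, the gene to be deleted, stood at 170 ± 26.7 CPM in the parental and 168 ± 44.2 CPM in the Cre libraries (SD, n = 6 each), and a total over the whole gene does not check the labels, in which the deleted exons are not named. Markers of ductal epithelium summed to 445 to 12631 CPM in the parental libraries and 360 to 13234 CPM in the Cre libraries, with line 52419 lowest in both. In that line the defining ductal markers Cdh1, Epcam and Krt8 were under 1 CPM, and Krt7 was at 1.49 and 1.23 CPM. Krt19 stood at 15.5 and 19.9 CPM, Krt18 at 253 and 188 CPM, and Sox9 at 171 and 149 CPM, within the range of the other lines. The 9 measured fibroblast and stellate markers summed to 9.69 to 2177 CPM and 8.20 to 1266 CPM, highest in line 53369, and several of these collagens also belong to the mesenchymal program. The 7 leukocyte markers summed to no more than 26.4 CPM, of which Cd68 gave up to 23.1, and the 7 endothelial markers to no more than 7.01 CPM. How far other cells contributed to the levels below was not tested.

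No regulator passed the test for a common change after Cre. Between lines, Esrp1 and Grhl2 ranged from under 1 to 109 and 53.6 CPM in the parental cultures. Zeb1, Snai2 and Twist1 stayed within 3.91-fold, 2.91-fold and 2.62-fold there and overlapped between most lines that were neighbours in level. In bulk RNA, fewer cells of a type and less RNA per cell cannot be told apart. Of the 10 regulators 7 reached the level set for testing, at least 1 CPM of the column total in 6 of 12 libraries, and Ovol1, Ovol2 and Grhl2 did not. In a limma fit with line as a block, 0 of the 7 passed an adjusted p of 0.05 for Cre minus parental, where 0.0236% of the 12734 genes tested did. Zeb2 and Snai1 were lower at an unadjusted p under 0.05, a level that 15.1% of all genes reached in either direction. DESeq2 and edgeR on the recovered reads called 2.12% and 0.0393% of the genes and 0 of the 7. The difference among lines was called by limma's F-test for 7 of 7, against 71.1% of all genes tested, so such a call is common here. The call of Esrp1 is not counted as a result, since Esrp1 passed the level filter only through the 6 libraries of the 3 lines in which it was high, and those of Zeb1 and Snai2 were lost under some alternatives.

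Taking the mean of its parental and Cre libraries, line 52424 was the lowest of the 6 in each of Zeb1, Zeb2, Snai1, Snai2 and Twist1 and the highest in each of Ovol1, Ovol2, Grhl2, Esrp1 and Esrp2. In Snai1, Twist1 and Esrp2 its libraries overlapped those of the next line, so these ranks hold for the means only. The other end of the range was not held by 1 line. Line 52419 was highest in Zeb2 and Snai1 and lowest in Grhl2, Esrp1 and Esrp2, line 53105 was highest in Twist1, line 53369 in Snai2 and line 53371 in Zeb1. Per kilobase of exon, where levels of different genes can be compared, Twist1 had the highest parental median at 30.7 CPM per kb. Zeb1 followed at 11.8, Esrp2 at 7.74, Snai2 at 6.42, Zeb2 at 3.68 and Snai1 at 2.76 CPM per kb. Esrp1 (1.23), Grhl2 (0.594), Ovol1 (0.318) and Ovol2 (0.102 CPM per kb) were lowest. Parental means gave another order, with Snai1 at 7.32 and Esrp1 at 5.96 CPM per kb, both above Zeb2 at 3.79, since the mean of Esrp1 holds 27.5 CPM per kb in 52424 and that of Snai1 the high levels of 52419 and 53369.

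**Figure D1:**
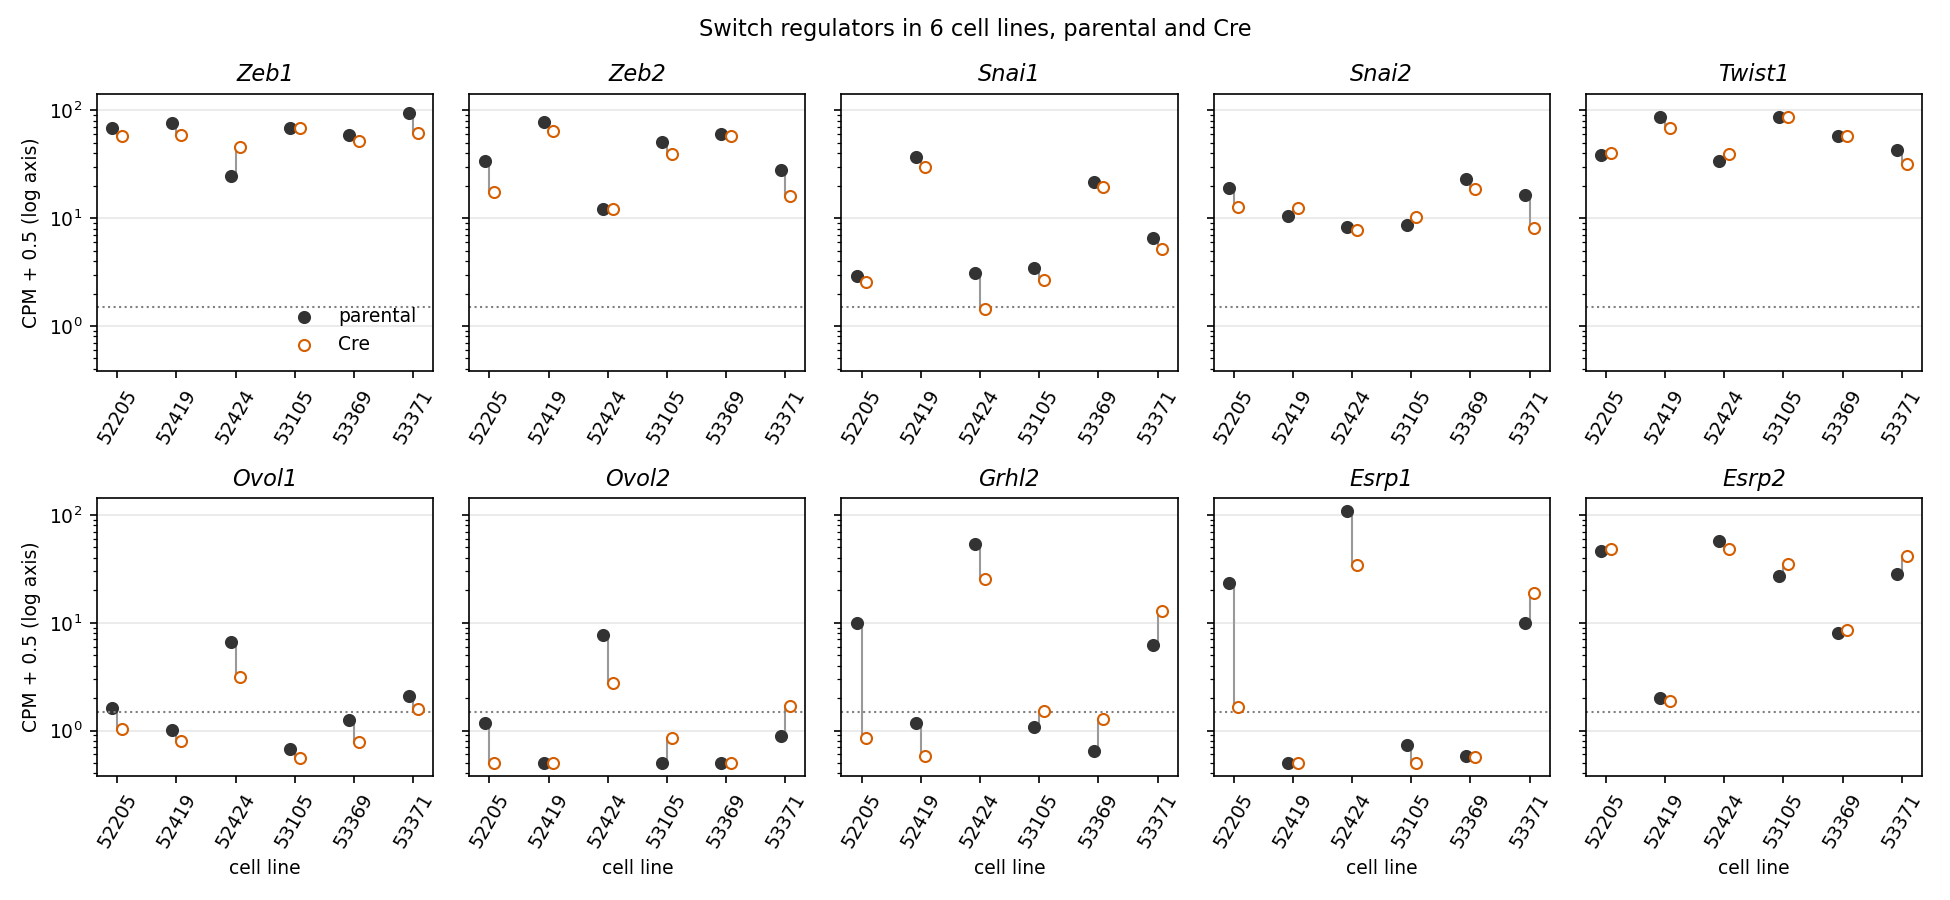
CPM + 0.5 on a log axis for each of the 10 regulators (panels) in the 6 cell lines (horizontal axis), with the parental library as a filled point and the Cre library as an open point joined by a line, 1 library each; the dotted line marks 1 CPM. The mesenchymal-side genes of the upper row stay above that line in nearly every library, while Grhl2 and Esrp1 in the lower row span from under 1 CPM to 53.6 and 109 CPM.

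Zeb1 encodes a zinc finger and homeodomain repressor of Cdh1 and of the microRNA-200 genes (GRCm38 chromosome 18, 5591327 to 5775468). Its parental libraries ran from 24.3 through a median of 68.7 to 94.9 CPM, and its Cre libraries from 45.7 through 58.5 to 67.7 CPM. Only the parental library of 52424 stood apart, below all the others, and the other 11 libraries ran from 45.7 to 94.9 CPM. The mean log2 change was -0.09 (SE 0.17, 95% interval -0.47 to 0.29, limma adjusted p = 0.826), lower in 5 of 6 lines. The exception was 52424, where Zeb1 was 1.88-fold higher after Cre (95% counting interval 1.63 to 2.18), which narrowed the range between lines. In 53371, the line with the highest parental level, it was 1.55-fold lower (1.41 to 1.70). Without 53371 the mean log2 change was 0.02, and without 52424 it was -0.29. The difference among lines was called by limma (adjusted p = 0.0401) but not by edgeR (adjusted p = 0.0706) or without the level filter (limma adjusted p = 0.0691). In the order of the lines, 53371, 53105, 52419, 52205 and 53369 each overlapped the next in their 2 libraries, and 52424 lay below them. Leaving out 52419, 52424 or 53105 also ended this call (limma adjusted p 0.0521, 0.150 and 0.0571). Counting intervals here and below are exact (Clopper-Pearson) and cover counting error only.

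Zeb2, the paralogue with the same type of DNA-binding domains (chromosome 2, 44983512 to 45117442), spread more widely. It ran from 11.6 through 42.1 to 77.6 CPM in the parental and from 11.6 through 27.8 to 64.01 CPM in the Cre libraries. Line 52419 was highest and 52424 lowest in both conditions, and 52205 and 53371 were the only neighbours in the order whose libraries overlapped. On average the log2 change was -0.41 (SE 0.14, limma p = 0.0146, adjusted p = 0.261), and the exact 2-sided sign-flip permutation p over 6 pairs was 0.0625. The lower values after Cre were largest in 52205, from 33.5 to 17.0 CPM (1.97-fold, 1.66 to 2.34), and in 53371, from 27.4 to 15.6 CPM (1.76-fold, 1.47 to 2.12). In 52424 Zeb2 was 11.6 CPM in both. Per kb, Zeb1 made up 63.7% to 88.6% of the sum of the pair in every library, so by this measure it was the more abundant ZEB transcript. The measure depends on the exon lengths used, 5.80 kb for Zeb1 and 11.4 kb for Zeb2. In CPM, without division by length, Zeb2 was above Zeb1 in both libraries of 52419 and of 53369.

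Snai1 encodes the SNAIL repressor, a short-lived protein that binds the Cdh1 promoter (chromosome 2, 167538195 to 167542814). Its parental levels were 2.40, 36.1, 2.58, 2.96, 21.1 and 5.99 CPM in 52205, 52419, 52424, 53105, 53369 and 53371. After Cre they were 2.06, 29.2, 0.945, 2.20, 18.9 and 4.65 CPM in the same order. Lines 52419 and 53369 were high in both conditions and did not overlap with the other 4. All 6 lines were lower after Cre, a pattern found in 4.56% of all genes tested and in 1 of the 7 regulators tested. The mean log2 change was -0.40 (SE 0.15, limma p = 0.0264, adjusted p = 0.294), and the exact sign-flip permutation p was 0.0312, the smallest that 6 pairs can give. Without 52424, whose difference was the largest, the mean log2 change was -0.27. The counting interval of the fold stayed above 1 in 2 of the 6 lines, 52419 (1.24-fold lower, 1.08 to 1.42) and 52424 (2.73-fold, 1.38 to 5.71, from 30 to 13 reads).

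Snai2, which encodes SLUG, a relative of SNAIL known from neural crest and basal epithelia (chromosome 16, 14705852 to 14709395), was at 7.83 to 22.8 CPM in the parental libraries, with a median of 12.98. The Cre libraries ran from 7.27 through 10.8 to 18.0 CPM, and the groups overlapped throughout. It was lower in 4 lines and higher in 2, with a mean log2 change of -0.26 (limma adjusted p = 0.497). Line 53371 gave the largest difference, from 16.1 to 7.69 CPM (2.09-fold lower, 1.62 to 2.70), and without it the mean log2 change was -0.11. In 52205 it went from 18.7 to 12.2 CPM (1.53-fold lower, 1.24 to 1.90), again beyond counting error. The difference among lines was called (limma adjusted p = 0.0220), but not without 52424 (0.0567) or 53369 (0.170).

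Twist1 encodes a basic helix-loop-helix factor of mesenchyme (chromosome 12, 33957671 to 33959831). It ran from 33.2 through 49.9 to 87.1 CPM in the parental and from 31.3 through 48.1 to 85.7 CPM in the Cre libraries. Lines 52419 and 53105 were highest, and 52205, 53371 and 52424 overlapped one another at the low end. The mean log2 change was -0.09 (95% interval -0.31 to 0.12, limma adjusted p = 0.666), with 4 lines lower and 2 higher. The largest single difference was in 53371, from 42.0 to 31.3 CPM (1.34-fold lower, 1.17 to 1.54), and the mean log2 change was -0.03 without that line, -0.04 without 52419 and -0.16 without 52424. In 53371, then, Zeb1, Zeb2, Snai2 and Twist1 were each lower after Cre beyond counting error, and Snai1 was lower within it.

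**Figure D2:**
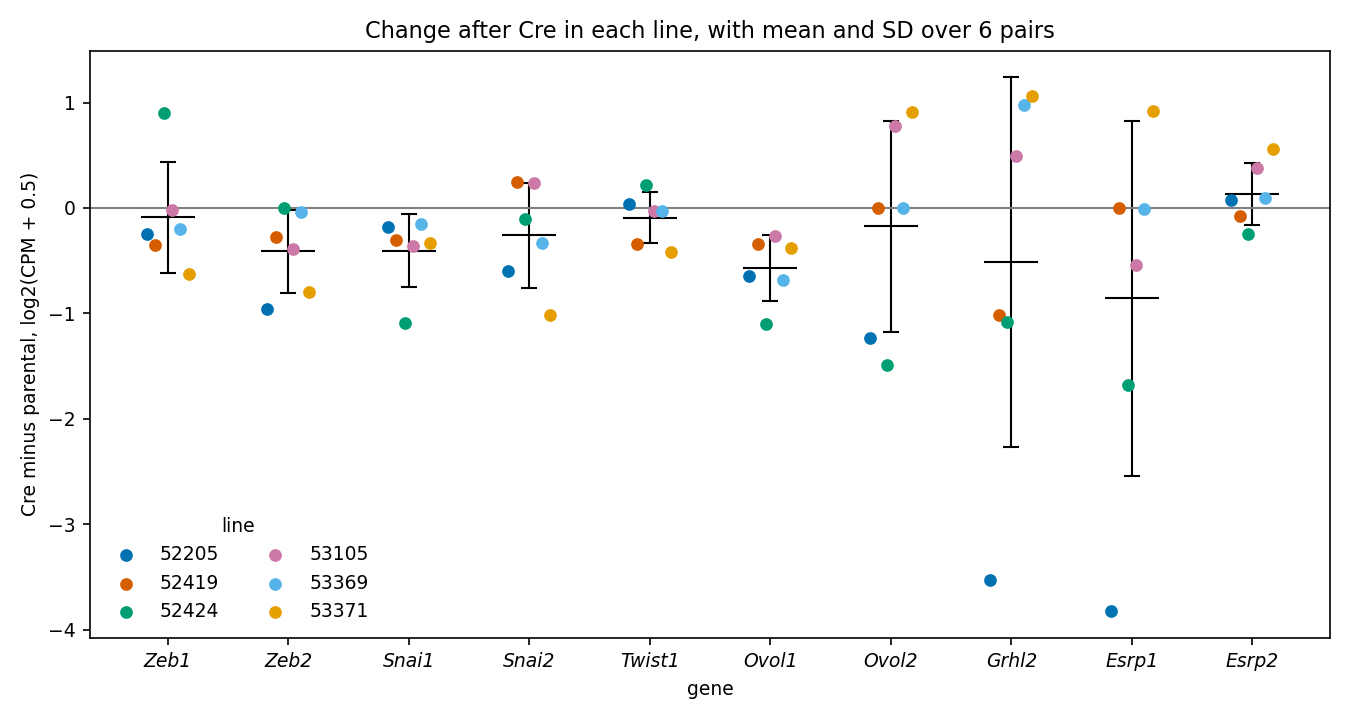
Cre minus parental difference in log2(CPM + 0.5) for each regulator (horizontal axis) in each of the 6 lines (coloured points), with the mean over 6 pairs as a bar and its SD as whiskers. The mesenchymal-side genes lie mostly within 1 of zero, while Grhl2 and Esrp1 in line 52205 lie at -3.53 and -3.82.

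Grhl2 encodes a grainyhead-like transcription factor that binds promoters and enhancers of junction genes such as Cdh1 and Cldn4 (chromosome 15, 37232821 to 37363569). The parental libraries of 52205, 52419, 52424, 53105, 53369 and 53371 gave 9.39, 0.669, 53.6, 0.569, 0.153 and 5.67 CPM. The Cre libraries gave 0.359, 0.0768, 25.2, 1.01, 0.786 and 12.3 CPM. Lines 52205, 52424 and 53371 thus had Grhl2 above 5 CPM as parental cultures, and the other 3 were under 1 CPM. After Cre it was 26.2-fold lower in 52205 (10.0 to 97.6, from 125 to 4 reads) and 2.13-fold lower in 52424 (1.87 to 2.44). In 53371 it was 2.18-fold higher (1.63 to 2.93). On few reads, it was 8.71-fold lower in 52419 (1.21 to 382, from 9 to 1 reads) and 5.14-fold higher in 53369 (1.12 to 47.7, from 2 to 11 reads). Over the 6 lines the log2 change averaged -0.51 (exact sign-flip permutation p = 0.562), with 3 lines lower and 3 higher, and was 0.09 without 52205, -0.81 without 53369 and -0.83 without 53371. It was not tested, since it reached 1 CPM of the column total, the scale of the level filter, in 5 libraries. The Cre library of 53105 (17 reads) fell short on that scale, although its normalised value was 1.01 CPM.

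Ovol1 and Ovol2 encode zinc finger repressors that keep mesenchymal genes such as Zeb1 silent in epithelia. Ovol1 (chromosome 19, 5549137 to 5560575) was at 0.171 to 6.20 CPM in the parental libraries, with a median of 0.946, and at 0.0593 to 2.62 CPM in the Cre libraries, with a median of 0.423. The parental culture of 52424 stood far above the others at 6.20 CPM. All 6 lines were lower after Cre, with a mean log2 change of -0.57 (-0.30 with a pseudocount of 2) and an exact sign-flip permutation p of 0.0312, but 5 of the 6 lines had 20 reads or fewer. Only in 52424, from 72 to 36 reads, did the counting interval of the fold stay above 1 (2.37-fold lower, 1.57 to 3.64). Ovol1 overlaps Ap5b1, a gene at 7.04 to 11.4 CPM, so reads of the 2 could be confused at these low levels.

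Ovol2 (chromosome 2, 144305175 to 144332080) had reads in 6 libraries only. It was at 7.23 CPM in parental 52424 and 2.25 CPM after Cre, a 3.21-fold difference (2.10 to 5.01, from 84 to 31 reads). Line 53371 went the other way, from 5 to 14 reads (3.00-fold higher, 1.02 to 10.7). In 52205 its 9 parental reads were followed by 0 reads after Cre. Lines 52419 and 53369 had 0 reads in both conditions, and 53105 had 0 and then 6. The mean log2 change of -0.17 became 0.09 without 52424 and 0.04 without 52205, and -0.39 without 53371.

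Esrp1 encodes the splicing regulator most closely tied to the epithelial state (chromosome 4, 11331933 to 11386783). In parental cultures it was at 109 CPM in 52424, 23.1 CPM in 52205 and 9.53 CPM in 53371. Lines 53105 and 53369 had 0.227 and 0.0765 CPM, and 52419 had 0 reads in both conditions. The lines therefore fell into 3 with Esrp1 transcripts and 3 with almost none, the same 3 and 3 as for Grhl2. After Cre, 52205 was at 1.17 CPM, 19.8-fold lower (11.4 to 37.6, from 307 to 13 reads). Line 52424 was at 33.7 CPM, 3.24-fold lower (2.91 to 3.61), and 53371 at 18.5 CPM, 1.94-fold higher (1.55 to 2.45). The mean log2 change was -0.86 (SE 0.52, 95% interval -2.01 to 0.30, limma adjusted p = 0.456). It was -0.26 without 52205, so the size of that mean rests on this line. DESeq2 gave -1.64 and edgeR -1.47 on the recovered reads.

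Esrp2, the paralogue with overlapping splicing targets (chromosome 8, 106130319 to 106137193), was distributed otherwise. Its parental levels in 52205, 52419, 52424, 53105, 53369 and 53371 were 45.6, 1.49, 56.7, 26.8, 7.57 and 27.9 CPM. After Cre they were 48.1, 1.38, 47.7, 34.9, 8.14 and 41.2 CPM. Here 53105 was close to 53371 although it had almost no Esrp1 or Grhl2, and 53369 held an intermediate level. On average the log2 change was 0.13 (SE 0.12, 95% interval -0.14 to 0.40, limma adjusted p = 0.628), with 4 lines higher and 2 lower. It was 0.05 without 53371, 0.08 without 53105 and 0.21 without 52424. In 52205, where Esrp1 was 19.8-fold lower, Esrp2 was 1.06-fold higher, within counting error (0.938 to 1.19). Esrp2 overlaps Nfatc3, which ran from 69.6 to 143 CPM and did not follow it (r = -0.36 over 12 libraries), and 1810019D21Rik, a long non-coding RNA at up to 6.91 CPM whose level moved with it (r = 0.79).

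The balance of the ESRP pair therefore differed between lines and shifted after Cre. Per kb, Esrp1 made up 63.2% of the ESRP transcripts in parental 52424, 31.1% in 52205 and 23.3% in 53371. After Cre the shares were 38.6%, 2.11% and 28.6%. In 53105 and 53369 Esrp1 was under 1% in every library, so nearly all ESRP transcripts came from Esrp2. The summed ESRP level of 52205 went from 18.7 to 13.9 CPM per kb, with Esrp2 making up nearly all of it after Cre. In 52424 the sum went from 43.5 to 22.0 CPM per kb. It was higher after Cre in 53371 (10.3 to 16.3) and in 53105 (7.65 to 9.88 CPM per kb).

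Across the 12 libraries, the levels of Esrp1 and Grhl2 went together (Pearson r of log2 levels 0.96), as did Esrp1 and Epcam (r = 0.98), while Esrp2 followed Cdh1 (r = 0.99). Between Esrp1 and Esrp2 themselves r was 0.68, and between Esrp1 and Cdh1 0.65. These values describe 12 libraries from 6 lines, in which the 2 libraries of a line share their origin. Zeb2 was opposite to Esrp1 in level (r = -0.84), and Snai1 was more opposed to Esrp2 (r = -0.93) than to Esrp1 (r = -0.61). For Zeb1 and Esrp1 r was -0.47, a value that rests largely on 52424, lowest in Zeb1 and highest in Esrp1. It does not describe the other lines, since 53371 was highest in Zeb1 and was also among the lines with Esrp1 transcripts. Over the 6 changes, Esrp1 and Epcam again moved together (r = 0.96), but Zeb1 and Esrp1 did not move consistently against each other (r = -0.36). Both values rest mainly on 52205, 52424 and 53371, since Esrp1 had 4 reads or fewer in each library of 52419, 53105 and 53369. In 52424 Zeb1 was higher and Esrp1, Grhl2 and Ovol2 were lower after Cre, and in 53371 Zeb1 was lower and Esrp1, Grhl2 and Ovol2 were higher. Not every regulator took part in this opposition. In 52424 Twist1 was higher (1.16-fold, 1.02 to 1.33), but Snai1 was lower (2.73-fold, 1.38 to 5.71) and Zeb2 was 11.6 CPM in both libraries. In 53371 Ovol1 was lower, within counting error (1.43-fold, 0.679 to 3.14). In 52205, the line with the largest fold decrease of Esrp1 and Grhl2, Zeb1, Zeb2 and Snai2 were lower beyond counting error as well, Snai1 was lower within it (1.17-fold, 0.661 to 2.09) and Twist1 was slightly higher, 38.4 against 39.3 CPM, also within it (0.901 to 1.17).

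**Figure D3:**
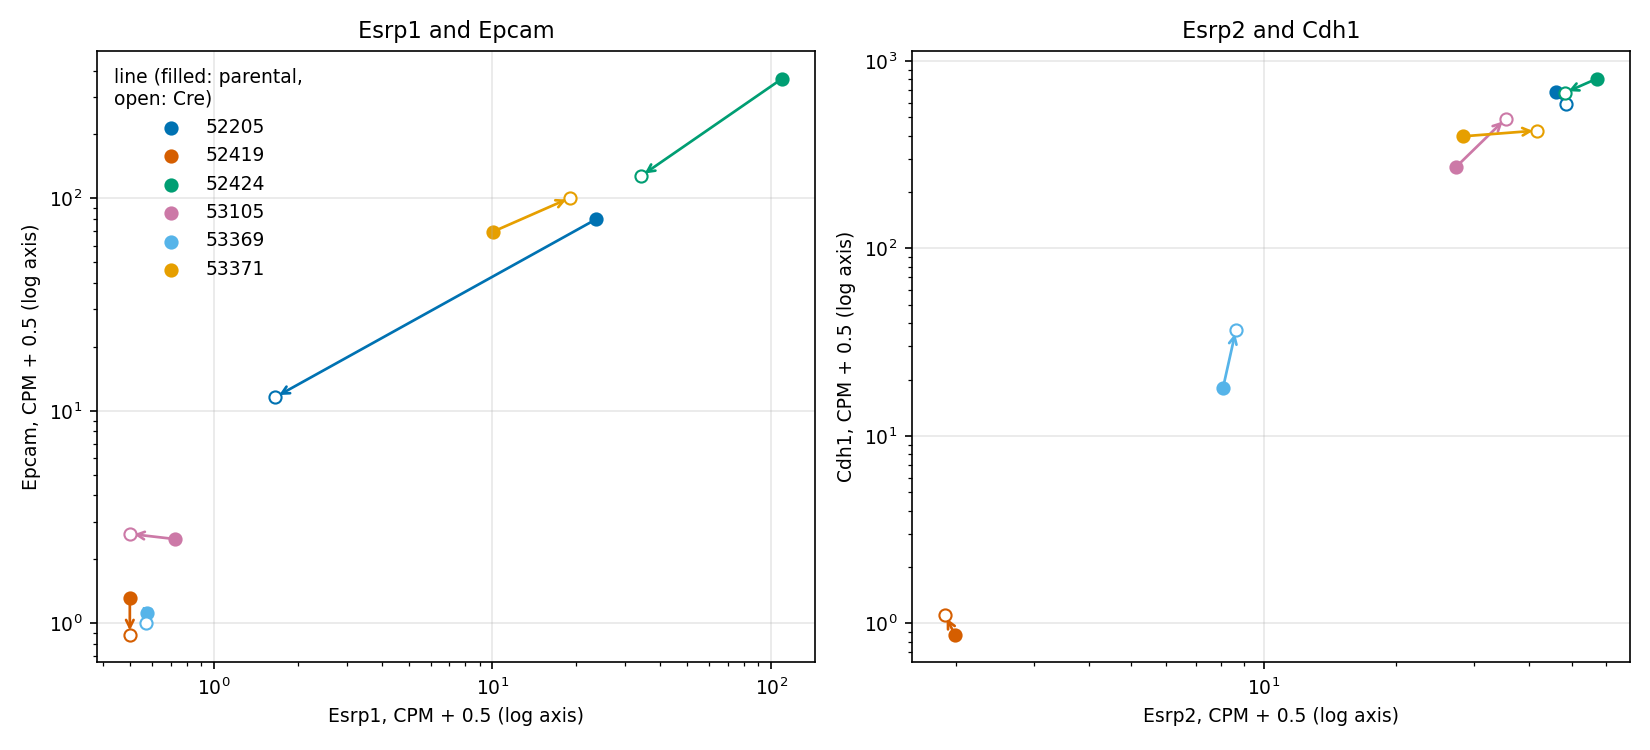
Epcam against Esrp1 (left) and Cdh1 against Esrp2 (right), CPM + 0.5 on log axes, with an arrow from the parental (filled) to the Cre (open) library of each of the 6 lines. On the left 52205 moves from 23.1 and 79.3 CPM to 1.17 and 11.1 CPM, while on the right the same line stays at 45.6 and 48.1 CPM of Esrp2 and 682 and 591 CPM of Cdh1.

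The classical readouts showed the same split. Epcam, an adhesion protein of epithelial cells, was at 79.3, 0.818, 366, 1.99, 0.612 and 69.2 CPM in the parental cultures of 52205, 52419, 52424, 53105, 53369 and 53371. After Cre it was at 11.1, 0.384, 127, 2.14 and 100.2 CPM in 52205, 52419, 52424, 53105 and 53371, and 53369 held 7 reads of it against 8 before. Cdh1 was at 682, 0.372, 805, 272, 17.5 and 396 CPM before and 591, 0.615, 675, 493, 36.4 and 425 CPM after Cre. Line 53105 thus had abundant Cdh1 and almost no Epcam, and 52419 had neither. Vim, the intermediate filament of mesenchymal cells, was lowest in 52424, at 492 and 857 CPM, and between 1561 and 3816 CPM in all other libraries. For Cre minus parental, limma gave adjusted p-values of 0.379 for Epcam, 0.406 for Cdh1 and 0.608 for Vim.

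A list of 32 epithelial genes known as targets of this switch was then read line by line. In line 52205, genes whose levels in the other 5 lines followed Esrp1 more closely than Esrp2 (Pearson r over 10 libraries) were mostly lower after Cre, as Esrp1 was, and those nearer to Esrp2 lay about evenly on both sides of 0. The 15 nearer to Esrp1 had a median log2 change of -1.94 in 52205 (-3.78 to 0.13), and 13 of them were lower by more than 1. The 17 nearer to Esrp2 had a median of -0.07 (-1.07 to 1.08), and 1 of them was lower by more than 1. This split was drawn after values had been seen and carries no test. The first set held Ap1m2, an adaptor for basolateral sorting (7.58 to 0.0896 CPM), Rab25, a GTPase of epithelial recycling endosomes (12.99 to 0.627 CPM), and Cldn4, a tight junction claudin (128 to 14.6 CPM). Cldn7 went from 48.3 to 6.63 CPM and St14, the membrane protease matriptase, from 33.3 to 6.36 CPM. The second set held Cdh1 and the keratins of simple epithelia, of which Krt8 went from 2401 to 3120 CPM, Krt18 from 2292 to 3256 CPM and Krt19 from 1351 to 2262 CPM in the same pair. In that set 9 genes were lower and 8 higher, and the lower ones included Tjp3 (log2 change -1.07), Marveld3 (-0.74) and Dsp (-0.69).

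Beside these values in 52205, the ductal marker sum went from 8960 to 13234 CPM and the fibroblast sum from 27.4 to 18.7 CPM. Leukocyte markers stood at 10.1 and 10.0 CPM, endothelial markers at 2.78 and 1.17 CPM, acinar markers at 7.81 and 11.9 CPM and endocrine markers at 3.45 and 15.4 CPM. Their part in the result was not tested.

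In 52424 the same rule placed 13 genes nearer to Esrp1, all lower after Cre, with a median log2 change of -1.39 (-1.65 to -0.76), and 19 nearer to Esrp2 with a median of -0.38 (-1.63 to 0.04). Here 17 of the 19 were lower too, so the whole list leaned down. In 53371 the medians were 0.51 for 13 genes and 0.39 for 19, with both sets mostly higher. In 53105 the set nearer to Esrp1 had a median of 0.08, with 4 of its 13 genes lower and 7 higher. The set nearer to Esrp2 there had a median of 0.48, and 18 of its 19 genes were higher, led by Cdh3, P-cadherin, from 5.004 to 33.9 CPM. In 53369 the 14 and 18 genes had medians of -0.02 and 0.41, and in 52419 of 0.00 and -0.05, where most of these genes had almost no reads.

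**Figure D4:**
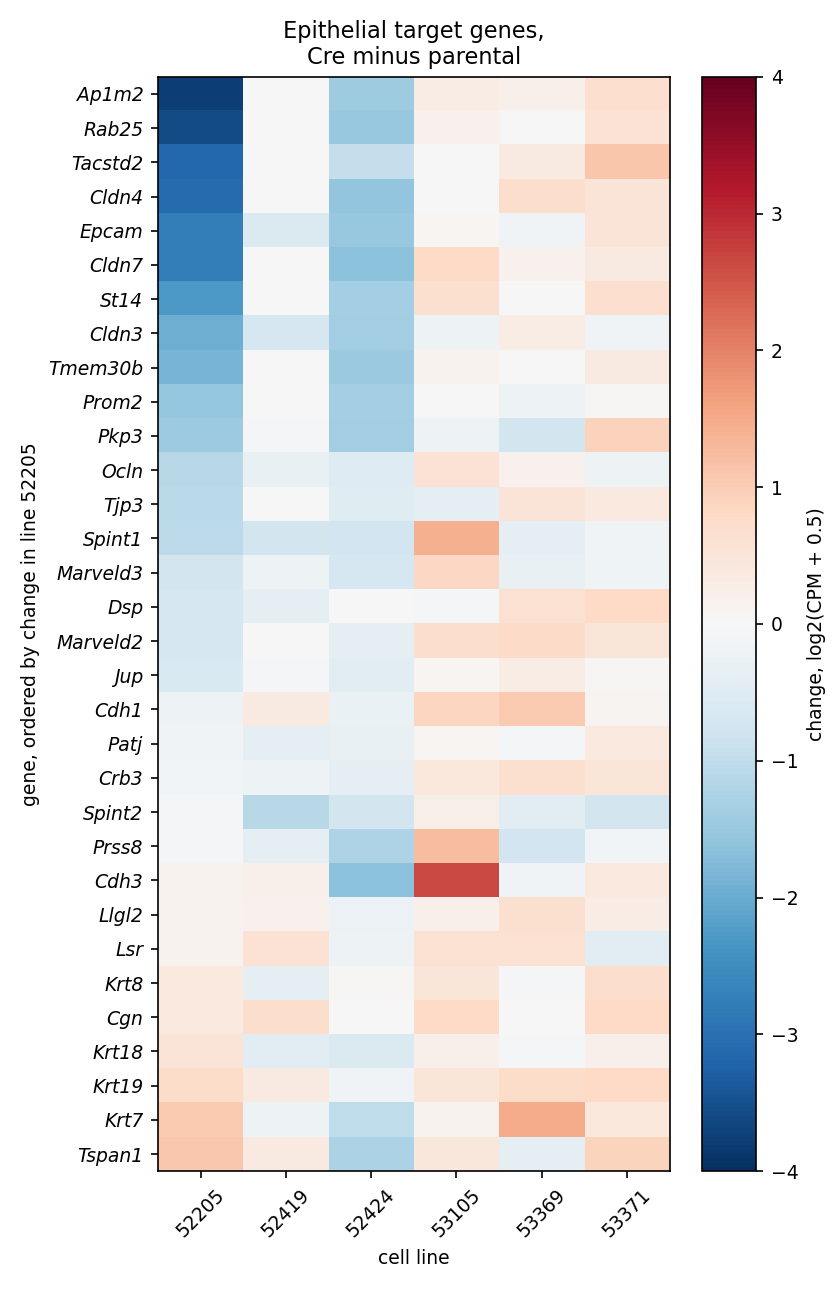
Cre minus parental difference in log2(CPM + 0.5) for 32 epithelial target genes (rows, ordered by their difference in 52205) in the 6 lines (columns), blue for lower and red for higher after Cre on a scale from -4 to 4. The upper rows, from Ap1m2 to Spint1, are lower in 52205 and 52424, while the keratins near the bottom are higher in 52205.

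Over all lines, 27 of the 32 epithelial targets passed the level filter, 0 were called by limma, and 15 estimates were below and 12 above 0, with a median log2 change of -0.07 against 0.00 for all genes. The medians of single lines were -0.21, -0.09, -0.59, 0.45, 0.16 and 0.39 in 52205, 52419, 52424, 53105, 53369 and 53371. The most regular members were Krt19, at 1060 ± 974 CPM in the parental and 1375 ± 979 CPM in the Cre libraries (log2 change 0.49, higher in 5 of 6 lines, limma adjusted p = 0.195, DESeq2 adjusted p = 0.0236) and Cgn, cingulin of tight junctions (0.44, higher in 5 of 6 lines, limma adjusted p = 0.240). Spint2, an inhibitor of matriptase, was lower in 5 of 6 lines (log2 change -0.47, limma adjusted p = 0.258). Spint2, Cdh1, Krt8 and Krt7 had the largest range between lines. Krt8 was at 0.818 CPM in parental 52419 and between 776 and 2401 CPM in the other parental cultures, and Krt7 was under 5 CPM in 52419 and 53369 and between 462 and 4733 CPM elsewhere.

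Of 28 mesenchymal targets, 22 were tested and 0 called by limma, with 11 estimates on each side of 0 and a median of 0.03. DESeq2 called 4 of the 22, all lower after Cre, against 2.12% of all genes tested, of which 208 of 270 were lower, and edgeR called 0. Fn1, the matrix protein fibronectin, was lower in 6 of 6 lines, at 4265 ± 2145 and 3113 ± 2221 CPM (log2 change -0.57, DESeq2 adjusted p = 0.00109, limma adjusted p = 0.177). Loxl1, which crosslinks elastin, was also lower in 6 of 6 (-0.86, DESeq2 adjusted p = 0.00336), as was Mmp2, a matrix metalloprotease (-0.46, DESeq2 adjusted p = 0.0443). The fourth was Tgfbi, an adhesion protein induced by TGF-beta, lower in 5 of 6 lines (-0.79, DESeq2 adjusted p = 0.0263), which was named after its values were seen. Among the 22 tested, those with the largest range between lines were Sparc, Col3a1, Col5a2 and Pdgfrb, each highest in 53369 among the parental cultures. Col1a2, which was not tested and was named after its values were seen, was at 831 CPM in 53369 and under 2 CPM in the other parental cultures. Col3a1, a fibrillar collagen, was at 843 CPM there, 33.9 and 34.2 CPM in 52419 and 53105, and under 1 CPM in the other 3.

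Of 16 other transcription factors of the mesenchymal side 12 were tested, and 10 of the 12 estimates were below 0, with a median of -0.19 against 6377 of 12734 below 0 for all genes. By limma and by edgeR 0 passed, and DESeq2 called 2 of the 12, against 2.12% of all genes tested. Prrx1, a homeobox factor of mesenchyme, was at 156 ± 185 and 114 ± 137 CPM and lower in 6 of 6 lines (log2 change -0.44, limma adjusted p = 0.140, DESeq2 adjusted p = 0.00278). Hmga2, a chromatin protein that acts upstream of Snai1 and Twist1, was at 873 ± 267 and 638 ± 216 CPM and also lower in 6 of 6 (-0.46, limma adjusted p = 0.186, DESeq2 adjusted p = 0.0126). Tcf4, an E-protein partner of TWIST, was lower in 6 of 6 as well (-0.31, limma adjusted p = 0.238) and was not called by either tool.

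Among other transcription factors of the epithelial side, 12 of 15 were tested, 0 were called, and 5 estimates were below and 7 above 0, with a median of 0.05. Ehf, an ETS factor of epithelia, behaved like Esrp1 in 52205, from 44.5 to 4.93 CPM, and its log2 change over all lines was -0.96 (limma adjusted p = 0.305). Hnf4a, a factor of gut and liver epithelia, had a log2 change of 0.36 (limma adjusted p = 0.327). Foxa2, a pioneer factor of endoderm, had one of 0.18 (limma adjusted p = 0.438).

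The 22 tested splicing regulators and ESRP splicing targets had a median change of 0.00, with 11 on each side and 0 called. Hnrnpm, which competes with ESRP proteins at splice sites, was higher in 5 of 6 lines (log2 change 0.35, limma adjusted p = 0.245). Mbnl1, a splicing factor of differentiated cells, was higher in 6 of 6 (0.34, limma adjusted p = 0.258), and Ralgps2, whose exons ESRP proteins regulate, was lower in 6 of 6 (-0.29, limma adjusted p = 0.229). Gene counts do not show which isoforms were made. Of 26 inducers and partners of the switch, all were tested, 0 called, 17 below 0 and 9 above, with a median of -0.02. Ezh2, the histone methyltransferase of Polycomb, was higher in 6 of 6 lines (0.30, limma adjusted p = 0.230), while Bmp4 was lower in 4 of 6 (-0.45, limma adjusted p = 0.291) and Smad3 in 5 of 6 (-0.25, limma adjusted p = 0.295). MicroRNA genes of the miR-200, miR-205 and miR-34 families were not analysed here.

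ZEB and SNAIL proteins bind the motif CACCTG, and its presence near gene starts was read from RefSeq promoters of GRCm38.p6, 250 bases before to 50 bases after each start. Of 27025 genes with a promoter in that table, 22.6% held CACCTG or its reverse complement CAGGTG at least once. Among the epithelial targets 19 of 23 genes held it, among the mesenchymal targets 1 of 15 (Sparc), and among the other mesenchymal-side factors 0 of 10. The epithelial list was made of genes known as targets of the switch, so its share describes the list. The motif stood in most targets nearer to Esrp1 (8 of 10 genes) and in most of those nearer to Esrp2 (11 of 13). Of the 10 regulators 4 had a promoter in the table. Snai1 held the motif once, and Zeb2 (4 starts), Twist1 and Ovol2 did not hold it. A match is a string of letters and does not show binding.

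The promoters of Epcam, which was lower with Esrp1 in 52205, and Krt8, which was not, are shown to let the motif be seen in both, and those of Snai1 and Ovol2 show a regulator with it and one without. CACCTG and CAGGTG are in capitals, and each sequence reads 5′ to 3′ along the gene's strand. In Epcam (chromosome 17, 87635729 to 87636028, plus strand) the first motif begins 187 bases and the other 19 bases before the start. In Krt8 (chromosome 15, 102004293 to 102004592, minus strand) it begins 111 bases before the start, and in Snai1 (chromosome 2, 167537945 to 167538244, plus strand) 126 bases before it. The window of Ovol2 is on chromosome 2 from 144331313 to 144331612, minus strand.
Epcam: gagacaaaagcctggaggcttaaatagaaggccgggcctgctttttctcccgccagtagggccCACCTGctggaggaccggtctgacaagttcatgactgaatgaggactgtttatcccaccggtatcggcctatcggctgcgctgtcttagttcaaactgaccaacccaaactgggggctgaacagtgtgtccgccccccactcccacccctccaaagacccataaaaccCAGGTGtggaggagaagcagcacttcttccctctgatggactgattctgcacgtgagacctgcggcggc
Krt8: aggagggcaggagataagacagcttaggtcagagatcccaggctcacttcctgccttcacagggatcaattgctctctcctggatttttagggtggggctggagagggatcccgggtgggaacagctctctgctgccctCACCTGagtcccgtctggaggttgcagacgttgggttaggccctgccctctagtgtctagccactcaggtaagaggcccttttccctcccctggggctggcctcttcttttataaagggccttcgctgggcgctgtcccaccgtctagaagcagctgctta
Snai1: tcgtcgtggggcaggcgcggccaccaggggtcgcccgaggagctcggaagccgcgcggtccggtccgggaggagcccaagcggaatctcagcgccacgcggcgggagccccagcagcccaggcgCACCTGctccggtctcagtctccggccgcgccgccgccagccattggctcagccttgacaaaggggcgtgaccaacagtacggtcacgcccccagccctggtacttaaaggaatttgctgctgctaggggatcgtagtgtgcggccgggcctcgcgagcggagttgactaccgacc
Ovol2: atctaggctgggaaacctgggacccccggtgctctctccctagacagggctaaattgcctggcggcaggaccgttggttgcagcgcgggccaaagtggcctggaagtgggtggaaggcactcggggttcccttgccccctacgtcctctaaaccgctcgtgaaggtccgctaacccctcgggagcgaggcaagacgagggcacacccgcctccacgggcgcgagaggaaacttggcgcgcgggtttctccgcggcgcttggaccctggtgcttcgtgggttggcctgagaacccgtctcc

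The OVO motif CCGTTA and the grainyhead motif AACCNGTT, searched on both strands, stand in 2.76% and 2.09% of 32851 promoters. Neither was found in the windows of Zeb2, Snai1, Twist1, Ovol2, Epcam, Krt8 or Vim, which says only that these letters are not there.

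The genes whose levels were most like Esrp1 over the 12 libraries were Ppp2r2c (Pearson r = 0.99), Atp10b (0.99), Cwh43 (0.99), Aldh1a2 (0.98) and Epcam (0.98), taken from all genes tested. Those least like it were Tada1 (-0.96), Rab8b (-0.95) and Pcolce (-0.95). For Zeb1 the likeness was lower, with Btd (0.88), Rnf227 (0.87), Epc1 (0.86) and Eif4g3 (0.86) among the top and Taco1 (-0.95), Nmt1 (-0.93) and Mrpl27 (-0.91) at the bottom. Esrp1 spans a wider range than Zeb1 across the lines, and these values describe 2 libraries each of 6 lines.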

How the data were processed

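The deposited table of signal values holds 20432 genes in 12 libraries, which are scaled read counts per 1e+06 reads (CPM), judging from the values. All values (100%) were whole multiples of 1 read within 0.01, so the reads were recovered by division. The authors also deposited log2 values for 10903 of these genes, used as an alternative. FastQC 0.11.9, featureCounts, edgeR and the builds GRCm38 and mm10 are named in the submitters' processing notes, and no aligner is given in the sources used here. Per the labels' protocols, RNA was captured with oligo(dT) and primed with random hexamers, with no strand step named, so reads of antisense partners that overlap a gene may count for it. Symbols came from RefSeq for 19448 genes and from GENCODE for 11, and 973 stayed unnamed.

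The test covered 12734 genes with 1 CPM or more of the column total in 6 libraries. The log2(value + 0.5) of each library, which understates the change of low genes, was fitted with limma-trend (limma 3.58.1, R 4.3.3) with line as a block. All tests are 2-sided, p-values were adjusted by Benjamini-Hochberg over all genes tested and called under 0.05, and an F-test of the line term gave the difference among lines. The labels pair the cultures by line. Same-line libraries deviated together (r across genes 0.73 to 0.95), each best with its own line. Single genes had an exact sign-flip permutation test over 6 pairs. Count tests on the recovered reads (edgeR 4.0.16, quasi-likelihood, and DESeq2 1.42.0, same block) called 5 and 270 genes. The limma step was tested on simulated data with known changes. Each line gave 1 library per condition. In the blocked fits, p-values for Cre minus parental and for lines are therefore measured against the spread of the Cre minus parental difference between lines.

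The regulators and lists were chosen with earlier results of these data known. Genes named were the regulators, Cdh1, Epcam and Vim, and for Zeb1 and Esrp1 the 5 most and 3 least alike in level by Pearson r. From each list came the 3 tested genes with the smallest p, and from both target lists the 4 tested genes with the largest range of line means. Some genes of the rule and lists are not reported here, while counts and sums include them. Any other gene was named after its values were seen. Exon lengths for levels per kb were the union of a gene's exons in GENCODE, and promoters came from RefSeq. Alternatives were pseudocounts, filters, scalings, the log2 table, no block, variance settings, library weights, each line left out and the count tests. Figures were drawn with matplotlib 3.10.9.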

Additional observations from a re-analysis of the deposited data

Results flagged for a closer look

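In each regulator, 3 sets of 6 values were examined (parental levels, Cre levels and changes), 30 in all, and 5 held a sample far from the others by Dixon's test. That test flags about 1 in 20 sets by chance when values are normally distributed. The flagged levels are in CPM rather than log2, and CPM reach far upward in some genes, so that rate need not hold for them. The log2 change of Snai1 in 52424, -1.093, lay below those of the other lines. The parental culture of 52424 stood above the other parental cultures in Ovol1 (6.199 CPM), Ovol2 (7.232 CPM), Grhl2 (53.64 CPM) and Esrp1 (109.1 CPM), and these 4 values come from 1 library.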

How the results depend on the processing

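No regulator was called for Cre minus parental under any of the alternatives run. Counts over all genes moved more. Against 3 genes lower and 0 higher, limma called 0 lower without the level filter, and 33 lower and 1 higher with library weights. The count tests called 5 genes lower (edgeR) and 208 lower and 62 higher (DESeq2). Leaving out 1 line at a time gave 0 to 5 genes lower, with 5 without 52205, 1 without 53105 and 0 without 52419, 52424 or 53369. Without the replicate block, the pairing by line, limma called 0 genes lower, 0 higher and 0 regulators. Of the mean changes, Zeb1 changed sign without 53371 (0.0182, range over all alternatives -0.287 to 0.0182), and the untested changes of Grhl2 and Ovol2 changed sign, Grhl2 without 52205 (0.0872) and Ovol2 without 52424 (0.0910) or 52205 (0.0400). The log2 change of Esrp1 ran from -1.64 to -0.26. With deposited values in the level filter, an alternative chosen after seeing the data, 8 regulators were tested and 0 called for Cre. For the difference among lines, Zeb1 was no longer called without 52419, 52424 or 53105 (limma adjusted p 0.0521, 0.150 and 0.0571), nor Snai2 without 52424 or 53369 (0.0567 and 0.170), and other tested regulators kept the call in each of these. The cause was not tested. Depth limits Ovol1 and Ovol2, whose reads outside 52424 numbered 20 or fewer per library.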
